A study of Mus musculus with 3 samples.

Results

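Wide clusters are stretches of at least 300 nt over which Ptbp2 CLIP reads of mouse testis ran on without a break. A cluster was a set of same-strand reads, each overlapping the next, that reached 10 or more reads at the highest point (the summit) and held reads of all 3 display colours of the deposited file. The wide ones were chosen by their measured width, on chromosomes 1 to 19, and 1 stretch of chromosome 17 that holds 12 clusters was left out. There were 319 of them among 6440 clusters of these chromosomes, or 4.95% (95% Wilson interval 4.45 to 5.51), and the other 6121 are the narrower clusters. Width and summit height chose the members, so both are given as descriptions, with no test.

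The data came from 3 HITS-CLIP libraries, each made from the testes of a different male CD1 mouse aged 8 weeks, with no input library used here and no second group in the labels. The file pools the libraries and draws its 1727697 reads in 3 colours, with 493620 red, 952096 green and 281981 blue. The labels do not tie a colour to an animal. Each colour is treated as 1 unnamed library, called a class here, and values are pooled or given per class. Whole testis holds germ cells and somatic cells together, and the part of each in these reads was not tested. Positions are mm9 positions counted from 1. Genes, exons and base sequences of the clusters were not analysed here, so members are named by position and strand.

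Ptbp2 belongs to the family of polypyrimidine tract-binding proteins, which regulate alternative splicing. These proteins carry several RNA recognition motifs and bind pyrimidine-rich stretches, and their target RNAs often hold several such stretches side by side. In HITS-CLIP, ultraviolet light links protein to RNA, the RNA is trimmed, and the fragments that come down with the protein are sequenced. A single contact point therefore gives a pile of reads no wider than the reads allow, while several contact points on 1 RNA can give neighbouring piles. Reads of background RNA can also form a long run, and without an input library they cannot be told from bound RNA.

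The median member was 373 nt wide, with quartiles of 326 and 446 nt, and most members lay near the threshold. Of the 319, 136 were 300 to 349 nt wide, 63 were 350 to 399 nt, 66 were 400 to 499 nt and 54 were 500 nt or more. The longest read was 74 nt, so reads that all cross 1 point span at most 147 nt, and each member held reads that could not share a point. The largest number of reads in a member that did not overlap one another was 7 in the median (range 4 to 37), against 2 in the narrower clusters. A member held a median of 53 reads (range 18 to 438), against 16 in the narrower clusters, and the highest summit had a median of 19 reads against 13. The read density was alike, with a median of 14.0 reads per 100 nt in the members and 14.3 in the narrower clusters. Together the members covered 132 kb and held 22020 reads, which was 15.5% of the reads in clusters and 1.27% of the file.

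The joins between the reads were thin. In 156 of the 300 members with more than 1 separate summit, the deepest trough between the outermost summits was bridged by a single read, and in 18 it held 5 reads or more. In narrower clusters with several summits, 30.3% of 898 had a trough of 1 read, against 52.0% of the 300. Of those narrower clusters 804 had exactly 2 summits, while 218 members had 3 or more. The lowest of more troughs tends to be lower by construction, so these shares are not a like comparison. Separate summits, defined below, also require low coverage between them. When reads had to overlap by at least 10 nt to be joined, 164 wide clusters were left, which overlapped 162 of the 319. When a run had to hold at least 3 reads throughout, 46 were left, all within members. The number also depended on each class, with 125 wide clusters without red reads, 61 without green reads and 206 without blue reads. After collapse to a single read for each 5' end in each class there were 262, and these overlapped 262 of the members. The members are thus stretches of neighbouring read piles that in most cases are joined by 1 or 2 reads at their weakest point.

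Most wide clusters held several separate summits. A separate local summit was a maximum of at least 5 reads, and coverage had to fall to at most 0.5 of the lower summit between neighbours. By this count 300 of the 319 members had 2 or more summits, which was 94.0% (95% Wilson interval 90.9 to 96.2), against 898 of the 6121 narrower clusters, or 14.7% (13.8 to 15.6). Over all 6440 clusters the share was 18.6%. Exactly 1 summit was found in 19 members, 2 in 82, 3 in 127, 4 in 56, 5 in 18 and 6 or more in 17. A longer run has room for more summits, so the gap between wide and narrower clusters follows in part from the rule and carries no test.

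The share did not step up at 300 nt. It was 0.0796% in clusters of 80 to 99 nt, 19.3% at 140 to 159 nt, 52.1% at 200 to 219 nt and 84.4% at 280 to 299 nt (74.7 to 90.9). Clusters of 300 to 319 nt had 91.4% (81.4 to 96.3) and those of 320 to 339 nt 83.3%, and each of the 120 clusters of 400 nt or more had at least 2 summits. The mean number of summits rose from 2.02 in clusters of 250 to 299 nt to 2.44, 2.79, 3.41 and 4.81 over the 4 width bands of the members. The difference between wide and narrower clusters was also present among clusters of like height. Width was not matched there and the share rises with width, so this comparison does not separate the difference from the width rule. Where the highest summit had 10 to 14 reads, 89.5% of 95 members and 12.8% of 3795 narrower clusters had several summits. With 15 to 24 reads the shares were 93.8% of 113 and 16.5% of 1787, and with 25 reads or more 98.2% of 111 and 21.7% of 539.

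**Figure D1:**
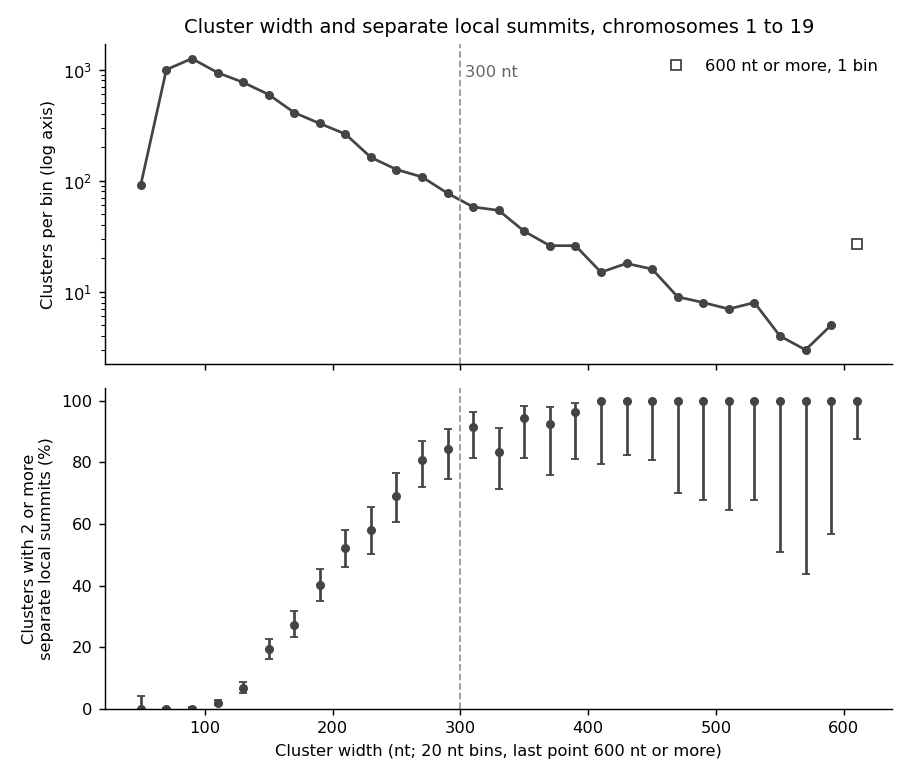
Number of clusters (upper panel, log axis) and share of clusters with 2 or more separate local summits (lower panel, with 95% Wilson intervals) by cluster width in 20 nt bins on chromosomes 1 to 19. The last point pools widths of 600 nt or more, and the dashed line marks 300 nt. The share climbs from 0.0796% at 80 to 99 nt to 84.4% just below the line and 91.4% just above it, with no step.

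Neighbouring summits within a member lay a median of 100 nt apart (interquartile range 76 to 139 nt, range 18 to 345 nt, 674 pairs). Of these distances, 44.8% were 50 to 99 nt, 31.2% were 100 to 149 nt, and 4.90% were 200 nt or more. A base with no read ends the cluster, which limits the larger distances. The trough needed between summits limits the smaller ones, since piles closer than a read length overlap. Of the 674 distances, 28 were under 50 nt, against a median read length of 48.0 nt. Each summit took up a median of 136 nt of width. The second-highest summit reached a median of 61.5% of the highest (interquartile range 42.8 to 79.5), against 54.5% in narrower clusters with several summits. In 186 members (58.3%) it had at least 10 reads, enough to be a cluster summit by itself. That held for 280 narrower clusters (4.57%), which have less room for a second summit. The highest summit was crossed by a median of 36.7% of a member's reads, against 90.9% in the narrower clusters.

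The widest member shows this arrangement at its fullest. It was chr19:5796937-5798651 on the minus strand, was 1715 nt wide and held 314 reads, of which 101 were red, 165 green and 48 blue. It had 12 separate summits, and the 4 highest stood 345, 825, 1411 and 1250 nt from its 5' end, with 32, 31, 24 and 22 reads. The summit of 32 reads was made of 10 red, 17 green and 5 blue reads, and that of 31 reads of 10 red, 20 green and 1 blue. After the collapse by 5' end, 232 reads and 10 summits were left within the same bounds. Its deepest trough held 1 read. The third-widest member, chr19:5800073-5800998, lay 1.42 kb from the widest on the same strand, with 121 reads and 7 summits, the highest of 17 reads. Another cluster on that strand abutted the widest member, with a gap of 0 nt.

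Some members had several tall summits in a row. The one with most reads, chr7:89919719-89920582 on the plus strand, held 438 reads, of which 81 were red, 271 green and 86 blue. Its 7 summits held 74, 37, 25, 80, 54, 8 and 79 reads from the 5' to the 3' end, so that 3 of them were nearly level. Each of the 7 was crossed by reads of every class, and the blue class alone had 13, 8, 6, 17, 11, 2 and 10 reads over them. After the collapse by 5' end it still had 7 summits, with 276 reads and 51 at the highest. Also on chromosome 7, the 185 reads of chr7:52589291-52589913 (minus strand) made 7 summits, with 49, 23, 19, 31, 8, 28 and 8 reads. The member chr3:20399270-20400149 (minus strand) held 197 reads in 7 summits of 10, 13, 28, 24, 16, 24 and 14 reads. On the minus strand of chromosome 10, the member chr10:18545455-18546176 held 138 reads in 7 summits between 10 and 21 reads high. In these 4 clusters the highest summit was less than 2 times the second.

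Other members were built around 1 tall summit. In chr5:129260073-129261041 (plus strand) the summit had 142 reads (26 red, 103 green and 13 blue), and the other 4 had 17, 31, 20 and 27. That cluster was the least thinly joined of the 3 with most reads, with 3 reads at its deepest trough and 856 nt in 1 stretch of at least 3 reads. The member chr14:101597656-101598301 (minus strand) had 117 reads at its first summit and 32, 9, 12 and 13 at those further on. In chr12:8486459-8487232 (minus strand) a summit of 95 reads (31 red, 41 green and 23 blue) stood between summits of 19 and 10 reads on its 5' side and 40 and 14 on its 3' side. A further member, chr5:135096913-135097435 (minus strand), had 4 summits of 8, 5, 101 and 35 reads. The member chr5:135095766-135096542, whose highest summit had 27 reads, lay 370 nt from chr5:135096913-135097435. The space between these 2 was mostly filled by another member. That one lay 28 nt from chr5:135095766-135096542 and 8 nt from chr5:135096913-135097435.

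In some members single summits came mainly from 1 class. The highest summit of chr15:74480947-74481688 (plus strand) had 77 reads, of which 73 were green, 3 red and 1 blue. After the collapse by 5' end its highest point fell to 34 and its 6 summits became 4. The highest summit of chr2:92373345-92374122 (minus strand) had 27 reads, of which 18 were red, 9 green and 0 blue. Another summit of 20 reads in the same cluster was made of 15 green, 3 red and 2 blue reads. After the collapse by 5' end that cluster still had 8 summits, the highest of 14 reads. In chr11:118162518-118163266 (minus strand) the first summit had 10 blue reads of 17 and the second had 12 green reads of 17. Which class is high thus differed between summits of 1 cluster, and with 1 library per class these differences have no replicate and were not tested.

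**Figure D2:**
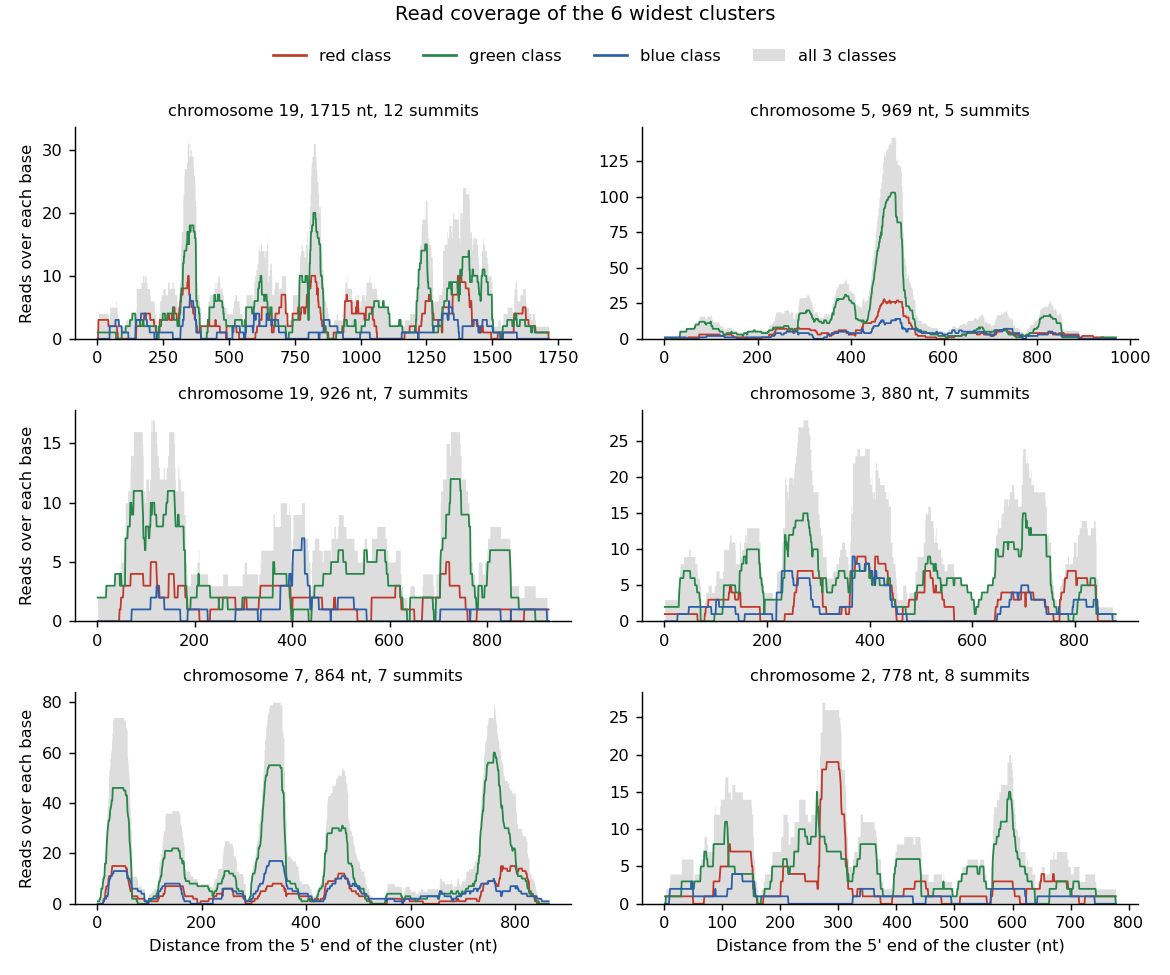
Reads over each base (vertical axis) against distance from the 5' end of the cluster in nt (horizontal axis) for the 6 widest members. Lines are the red, green and blue classes and the grey area is their sum. The widest, on chromosome 19, shows 12 summits over 1715 nt, and the one on chromosome 5 shows a single summit of 142 reads among lower ones.

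Around the threshold, 3 members of 300 nt with most reads were chr10:18538419-18538718, chr14:24899629-24899928 and chr4:127628403-127628702, all on the minus strand. They had 3, 4 and 2 summits, and their highest summits were 16, 16 and 11 reads. Just outside lay chr11:33994115-33994413 on the minus strand and chr10:80856339-80856637 on the plus strand, 299 nt wide, and chr7:133646553-133646850 on the minus strand, 298 nt wide. These had 3, 2 and 1 summits, and their highest summits were 110, 41 and 29 reads.

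The rule asks for all 3 classes somewhere in a cluster but not at each summit, so the classes at the further summits were not fixed by it. Of the 674 summits of members other than the highest, 430 were crossed by reads of all 3 classes, or 63.8% (95% Wilson interval 60.1 to 67.3), 223 by 2 classes and 21 by 1. In the narrower clusters the share was 60.9% of 997 (57.8 to 63.9). Over all local summits of the 6440 clusters, which are mostly highest summits, it was 86.1%. The share followed the height of the summit. In members it was 44.4% for further summits of 5 to 9 reads, 80.3% for those of 10 to 19 reads and 95.7% for those of 20 reads or more. The highest summits of members had 81.1% at 10 to 19 reads and 96.7% at 20 reads or more, so further and highest summits of like height had overlapping intervals. Highest summits of 10 to 19 reads in the narrower clusters had 91.6% of 5048. Over all narrower clusters a median of 90.9% of the reads crossed the highest summit, against 36.7% in members. The rule of 3 classes per cluster may thus bear unequally on the 2 shares, and its part was not tested.

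To ask whether the summits recur between libraries, summits and troughs were placed with the green reads alone and then read in the red and blue classes, which had no part in placing them. Green reads gave 445 neighbouring pairs of summits in 238 members, a median of 105 nt apart. Over these pairs the red class had a mean of 4.44 reads at the summits and 1.88 at the trough, and the blue class 2.48 and 1.12. All 3 classes took part in choosing the clusters by their pooled summit, so the choice itself can lower the ratio of trough to summit in red and blue. A base with no read ends a cluster, so where green has no read at a trough, red or blue must have reads there. That can raise the ratio, and neither amount was tested. Summed over all 445 pairs, the red and blue reads at the troughs were 0.434 of those at the summits. The ratio was 0.424 in red alone and 0.451 in blue alone, so the classes gave nearly the same value. Green itself had 12.1 reads at the summits and 1.42 at the troughs, a gap that placing them with green fixes.

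Pair by pair, the pooled red and blue reads were lower at the trough than the mean of the summits in 347 of 391 pairs, or 88.7% (95% Wilson interval 85.2 to 91.5), and lower than both summits in 247. These are the pairs with a mean of at least 3 red and blue reads at the summits, a limit that favours low ratios. Their median ratio was 0.400 (interquartile range 0.222 to 0.667). It was 0.333 in red over 277 pairs and 0.222 in blue over 140 pairs, with the same limit applied to each class. When red and blue placed the summits and green was read off, the median ratio was 0.316. In narrower clusters the same reading gave a summed ratio of 0.528 over 477 pairs, which lay closer together, at a median of 75 nt. Pairs of 1 member share their reads, so these shares describe the pairs and are not tests.

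**Figure D3:**
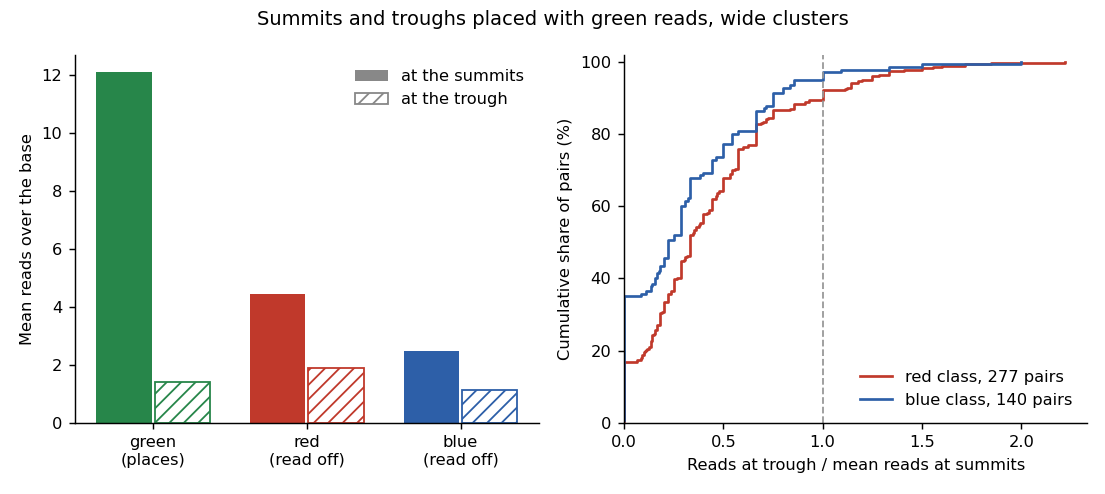
Left, mean reads over the base at the summits (filled) and at the trough between them (hatched) for 445 pairs placed with green reads in wide clusters, by class. Right, cumulative share of pairs against the ratio of trough reads to mean summit reads in red (277 pairs) and blue (140 pairs), with a dashed line at a ratio of 1. In both classes that did not place the summits, reads at the trough were fewer than at the summits.

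Which summit was the highest differed between classes in many members. In the 226 members where red and green each reached 5 reads at a point, their highest points lay within 25 nt of each other in 114, or 50.4% (95% Wilson interval 44.0 to 56.9). That share was 48.8% of 129 for green and blue and 45.8% of 107 for red and blue. In narrower clusters it was 85.8%, 85.9% and 86.1%, where there is less room for the highest points to differ. All 3 classes reached 5 reads at a point in 107 members (33.5%), against 449 narrower clusters (7.34%). Members also held more reads, with a median of 53 against 16.

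Width was also read in a class that had no part in choosing the cluster. Wide clusters chosen with green and blue alone numbered 125, and each held red reads, with a median of 20 reads over 80.7% of the width. The 61 chosen with red and blue all held green reads, with a median of 46 reads over 93.4% of the width. Of the 206 chosen with red and green, 205 held blue reads, with a median of 10 reads over 59.5% of the width. Among narrower clusters chosen in the same ways, 92.4% held a red read, 98.1% a green read and 78.6% a blue read. Their median covered widths were 74.4%, 88.0% and 54.5%. The covered width was lowest for blue, the shallowest class, and highest for green, the deepest, in both sets. A single class seldom made an unbroken run of 300 nt within a member, with 98 members where green did so, 33 where red did and 6 where blue did.

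The highest summit was spread along the members. When each member was cut into 5 equal parts from its 5' end, the highest summit fell in the first in 45 members, the second in 84, the third in 85, the fourth in 78 and the last in 27. The outermost part at the 5' end thus held 14.1% (95% Wilson interval 10.7 to 18.4) and that at the 3' end 8.46% (5.88 to 12.0). In the narrower clusters 47.1% of the highest summits were in the middle part, and 2.42% and 2.35% in the outermost ones. Narrower clusters had a median width of 115 nt and a median read length of 48.0 nt. Their highest summit thus has less room to lie off the middle, so this difference follows in part from the width rule. The highest summit lay on the 5' side of the middle in 54.9% of members (49.4 to 60.2), an interval that includes an even split.

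**Figure D4:**
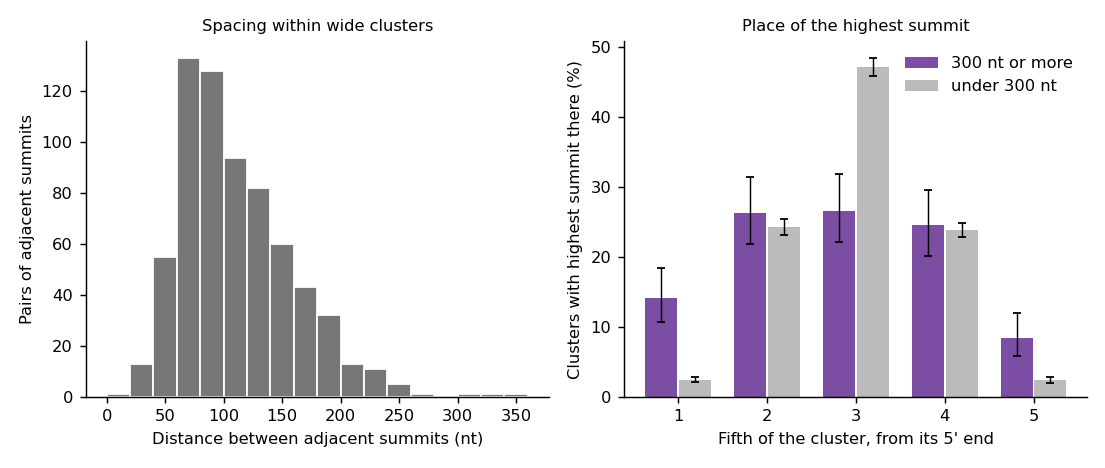
Left, number of pairs of adjacent summits within wide clusters by their distance in nt, in 20 nt bins (674 pairs). Right, share of clusters whose highest summit lay in each of 5 equal parts of the cluster from its 5' end, for wide and narrower clusters, with 95% Wilson intervals. In wide clusters the 3 inner parts are nearly level, at 26.3%, 26.6% and 24.5%, while 47.1% of narrower clusters have the highest summit in the third part. Narrower clusters leave less room for the highest summit to lie off the middle.

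The reads in wide clusters were like those in narrower ones. Their median length was 48.0 nt in both. There were 1.68 reads per distinct 5' end in both sets, and 1.52 against 1.55 reads per distinct 3' end. The collapse by 5' end left 72.5% of the reads in members and 72.4% in narrower clusters. Within the bounds of the members that step left 885 of 993 summits by number, and 282 of the 319 still had 2 or more. In the median member 8.82% of the reads shared the commonest 5' end, against 22.2% in the narrower clusters, which have fewer reads over fewer positions. The class mix was 27.6% red, 56.5% green and 15.9% blue in members, and 27.5%, 54.8% and 17.7% in narrower clusters. The rule asks for at least 1 blue read in each cluster, and its part in these shares was not tested. Opposite-strand reads made 0.0499% of the reads within members, 11 in all, in 8 members. In narrower clusters they made 0.0400%, or 48 reads in 34 clusters.

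Wide clusters lay in densely read surroundings. The flanking 1 kb on either side held a median of 2.50 same-strand reads per 100 nt, against 1.00 around narrower clusters. Another cluster lay within 10 kb on the same strand for 237 members, or 74.3% (95% Wilson interval 69.2 to 78.8), against 53.7% (52.5 to 55.0) of narrower clusters and 54.7% of all. The share with a neighbour within 100 nt was 28.2% (23.6 to 33.4) against 10.8%. When clusters up to 10 kb apart were joined, 44 members (13.8%) fell in groups of 10 or more, against 7.47% of narrower clusters. Another member lay within 10 kb on the same strand for 105 of the 319, or 32.9% (28.0 to 38.2). A member lay that near to 8.61% (7.93 to 9.34) of narrower clusters and to 9.81% of all clusters. A single base without a read is enough to part 2 clusters, and so are reads that abut without overlapping. The read density of the flanks moved with width, and its part in these differences was not tested.

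Every autosome held wide clusters. Chromosomes 2 and 11 had most, with 30 each. As a share of the chromosome's clusters, wide ones made 8.00% on chromosome 19 (16 of 200, 95% Wilson interval 4.98 to 12.6) and 7.56% on chromosome 11 (5.34 to 10.6). The lowest share was 2.85% on chromosome 1 (14 of 492, 1.70 to 4.72). Of the members, 45.1% were on the plus strand (39.8 to 50.6), against 51.8% of narrower clusters. Neighbouring members may come from 1 RNA, so intervals over members cover counting error only.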

How the data were processed

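The mapper was Bowtie and the build mm9, per the submitters' processing notes. Not given in the sources used here are its version, its settings and how reads with several matches were handled. Per the labels' protocols, random linker bases open each read. The authors deposited a single BED file of read intervals, whose score was 0 on each line and was not used. No interval was listed more than once (0 repeats), so identical reads had probably been collapsed. Each read was taken as a single interval of at most 74 nt, and whether reads across splice junctions were kept was not tested.

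Same-strand reads that overlap by at least 1 nt were merged, coverage was computed and summits were counted with numpy 2.4.6 and pandas 2.3.3 in Python 3.11.15. Figures were drawn with matplotlib 3.10.9. Summit counting was tested on simulated data with evenly spaced sites of equal read number. Low summits and closely spaced ones, which the real clusters also hold, were not simulated. Wilson intervals are at 95% and hold counting error alone, because several reads may stem from 1 molecule. No p-value was computed.

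The members, the summit rule and the alternatives were chosen with earlier results of these data known. Regions named are the 10 widest members, the 10 with most summits, the 10 with most reads, and the 3 clusters on either side of the width threshold. No sequence is printed because no mm9 sequence was used, and testis cell markers were not analysed here.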

Additional observations from a re-analysis of the deposited data

Results flagged for a closer look

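Wide clusters also occurred in data that the rule leaves out. On the mitochondrial chromosome 6 of the 10 clusters were at least 300 nt wide, all on the plus strand. The widest ran from 366 to 1687, with 324 reads and 10 separate summits, and the next from 1822 to 2765, with 323 reads and 7 summits. In the region of chromosome 17 that was left out, 5 of the 12 clusters were wide and held 1562 reads. The widest of these ran from 39984361 to 39985602 on the plus strand, with 852 reads and 8 summits, and the one from 39983373 to 39983765 had 203 reads at its highest summit and 2 summits. No control library was used here.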

How the results depend on the processing

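The 319 wide clusters became 408 when a summit needed 5 reads and 150 when it needed 20, 164 with joins of at least 10 nt, 46 with coverage of at least 3 reads throughout, 1055 from 200 nt, 120 from 400 nt, and 61 to 206 with 1 class left out. The share with several summits, 94.0% in wide and 14.7% in narrower clusters, was 89.7% and 8.40% when a summit needed 5 reads, 96.7% and 19.3% when it needed 20, 97.6% and 11.3% with joins of 10 nt, and 97.8% and 7.72% with 3 reads throughout. Counting reads of a class that share a 5' end once gave 90.8% and 13.2%, and doing so for 3' ends after that 88.7% and 14.3%. Counting as wide from 200 nt gave 73.0% and 7.95%, and from 400 nt 100% and 17.1%. A trough of at most 0.75 gave 96.9% and 21.9%, one of at most 0.25 gave 76.8% and 6.71%, and local summits of at least 10 reads gave 58.3% and 4.57%. Requiring 2 of 3 classes gave 12.4% in narrower clusters, and leaving out 1 class gave 91.8% to 96.1% in wide and 10.9% to 12.7% in narrower ones. In every setting run the wide share was the higher. Each setting still divides clusters by width, which leaves room for more summits, so this direction follows in part from the rule. The median trough-to-summit ratio, 0.400, was 0.50 with a trough of at most 0.75, and 0.286 to 0.400 without red or blue reads. Read in blue alone it was 0.222, and 0.316 in green with summits placed by red and blue, both chosen after seeing the data, as were all settings of this ratio other than the limits on local summits and troughs. Without green it was not computed, since green places the summits. Fewer reads or clusters enter the stricter settings by construction, and other causes were not tested. No paired analysis was possible because there is no second group. The blue class, which had the fewest reads, alone reached 10 reads at a point in 24 members (7.52%). Red did so in 85 members and green in 200. In narrower clusters blue alone did so in 98 (1.60%). The part of depth in these counts was not tested.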

Other observations

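The X chromosome, also outside the rule, held 2 wide clusters among its 46. Both lay on the minus strand, from 132211710 to 132212058 with 39 reads and 3 summits, and from 132222889 to 132223529 with 57 reads and 5 summits. Chromosome Y and the unplaced sequences held 11 clusters, 0 of them wide.

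The 19 members with 1 separate summit had a median width of 330 nt and none was wider than 389 nt. Their highest summits had a median of 13.0 reads and at most 51.0, and they held a median of 30.0 reads. Of all members, 1 had a stretch of 300 nt with at least 10 reads throughout, and 13 had one with at least 5.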
